A study of Mus musculus with 2 samples.

Results

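The genes described here encode the T cell receptor complex: Cd3g, Cd3e, Cd3d and Cd247, which encode the CD3 gamma, epsilon, delta and zeta chains, and Trac, Trbc1, Trbc2, Trdc, Tcrg-C1 and Tcrg-C4, which encode constant regions of the receptor chains. They were chosen by name, and all 10 were found among the 18786 genes of the table. The cells were innate lymphoid cells (ILCs) of mouse skin, strain C57/BL6, taken in 1 library at postnatal day 1 and in another at postnatal day 14. They were sorted as CD45+, Lin-, Thy1.2+ and run on the 5′ single-cell kit of 10x Genomics. The labels name no genetic change or treatment in either group and do not give the antibodies of the lineage mix or the number of mice pooled. Cell names carried 1 of 2 suffixes that matched neither day's label, so the cells are given as cell set 1 and cell set 2, side by side, and no set was assigned to a day. Without replicates no test was possible, and intervals (95%) cover counting error only.

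In T cells the complex is a signalling machine of separate parts. An alpha and beta or a gamma and delta chain pair recognises antigen, and the CD3 chains and zeta carry the signal into the cell through tyrosine motifs; epsilon pairs with gamma and with delta, and surface receptor needs it. ILCs are lymphocytes that lack a rearranged antigen receptor and respond to cytokines instead. A UMI (a tag that counts an RNA molecule once) of a constant region does not tell whether its locus was rearranged.

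The main pattern was an uneven set of RNAs. Cd3g and the beta constant regions Trbc1 and Trbc2 were found in most cells of both sets, at 255 to 533 UMIs per 1000000 UMIs of the set (CPM). Cd3e and Cd3d, the partners of Cd3g, stood at 5.94 to 9.87 CPM. Of the cells with Cd3g RNA, 88.3% (86.3 to 90.1) of set 1 and 94.5% (93.5 to 95.3) of set 2 held no UMI of Cd3e or Cd3d, close to the 89.9% and 95.4% of all cells that held neither.

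The 3 CD3 genes are neighbours on mouse chromosome 9 (GRCm38). Cd3g (44969572 to 44980431, minus strand) and Cd3d (44981786 to 44987339, plus strand) point away from each other with their starts 1355 bases apart, and the start of Cd3e (44998740 to 45009627, minus strand) lies 29196 bases from that of Cd3g. Because such close neighbours differed so far in RNA, the bases before each start are shown, 5′ to 3′ on the gene's strand, from RefSeq (GRCm38.p6). Capitals mark matches, on either strand, to the E-box CAGGTG, the GATA motif AGATAA or the ETS motif GGAAGT. The windows are chr9:44980432-44980681 for Cd3g, chr9:44981536-44981768 for Cd3d and chr9:45009664-45009861 for Cd3e.
Cd3g: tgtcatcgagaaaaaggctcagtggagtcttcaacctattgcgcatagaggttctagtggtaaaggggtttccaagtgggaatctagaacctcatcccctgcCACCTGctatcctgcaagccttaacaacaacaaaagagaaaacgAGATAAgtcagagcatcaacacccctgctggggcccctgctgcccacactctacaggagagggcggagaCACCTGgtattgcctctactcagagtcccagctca
Cd3d: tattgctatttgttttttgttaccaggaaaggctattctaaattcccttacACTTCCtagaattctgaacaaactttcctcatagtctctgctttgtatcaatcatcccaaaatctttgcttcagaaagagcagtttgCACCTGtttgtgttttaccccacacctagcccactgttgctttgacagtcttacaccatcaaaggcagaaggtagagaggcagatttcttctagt
Cd3e: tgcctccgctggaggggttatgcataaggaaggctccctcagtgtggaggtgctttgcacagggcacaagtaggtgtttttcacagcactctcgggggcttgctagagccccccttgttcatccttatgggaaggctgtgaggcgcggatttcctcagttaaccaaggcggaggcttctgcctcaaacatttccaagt
The Cd3g window held 2 E-box matches and 1 GATA match. In all 32851 RefSeq promoters, windows of the same 250 bases held the E-box letters in 17.2% and the GATA letters in 9.99%. The Cd3d window of 233 bases held 1 E-box match, found in 16.2% of windows of that length, and 1 ETS match, found in 17.9%. In the 198 bases of Cd3e none of these 3 motifs was found, and neither TATAAA nor the RUNX motif TGTGGT was found in any of the 3 windows. No searched motifs overlapped in them. Each window ends before the outermost annotated start, so the 17 bases next to the GENCODE start of Cd3d given above and the 36 next to that of Cd3e were not shown or searched. A match is a stretch of letters and not evidence of binding.

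**Figure D1:**
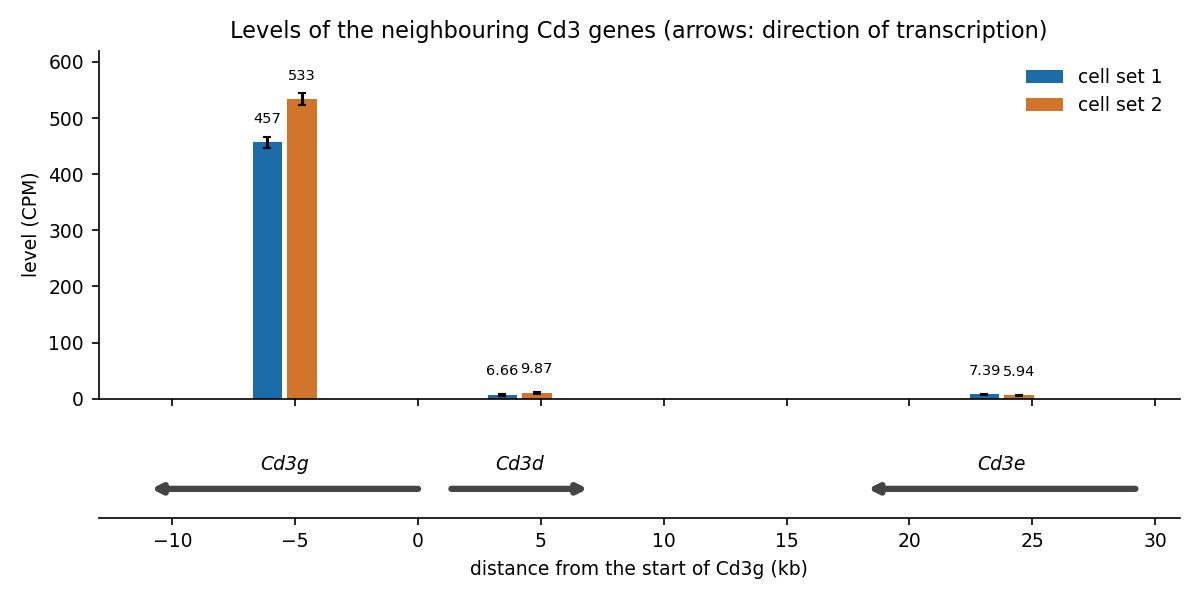
Level of Cd3g, Cd3d and Cd3e in CPM (bars, with exact Poisson 95% intervals) over each gene's place along the chromosome, as distance in kb from the start of Cd3g, with arrows for the direction of transcription. The Cd3g bars reach 457 and 533 CPM while both neighbours stay below 10 CPM.

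The 2 sets differed in depth and in RNA from other cells. Of 5246 cells, 1441 of set 1 and 3508 of set 2 were kept, with medians of 10683 and 4849 UMIs, and 4 barcodes occurred in both sets. Markers of ILC2, the ILCs that make type 2 cytokines, were all detected (13 of 13) and summed to 4391 and 4377 CPM. The 12 markers of ILC3 (Ncr1 at 0 in set 1) summed to 369 and 514 CPM. The 11 of ILC1 and NK cells (Ncr1 at 0 in set 1, Gzma in set 2) summed to 154 and 215 CPM. Cycling markers (8 of 8) summed to 883 and 245 CPM, whereas 6 myeloid markers summed to 0.969 and 0.222 CPM. Of the alpha beta T cell markers other than receptor chains, Cd5 had 1 and 20 UMIs, Cd6 5 and 50, Cd8b1 1 and 5 and Cd4 195 and 40, while Cd28 had 1080 and 1250. With the receptor chains the list summed to 794 and 944 CPM (10 of 11 genes in the table), and the gamma delta T cell list to 166 and 325 CPM (10 of 11). Keratinocyte markers (5 of 5 detected) summed to 120 and 15.5 CPM, fibroblast markers (5 of 5) to 71.6 and 3.49 CPM, and mast cell markers to 76.7 CPM (4 of 4) and 0.444 CPM (2 of 4, with Cma1 and Tpsb2 at 0). Erythroid markers (4 of 4) summed to 127 and 210 CPM. Single cells held much of this: 67.9% and 65.8% of the Hbb-bs UMIs lay in 1 cell of each set. Hbb-bs was found in 27.4% of set 1 cells and 5.19% of set 2 cells. Dendritic cell markers summed to 65.6 CPM (5 of 6, with Cd209a at 0) and 411 CPM (4 of 6, with Cd209a and Flt3 at 0). Their list includes Ccr7, a leading gene of cluster 0 of set 2 described below, so its sum is not read as RNA from dendritic cells alone. Krt14, a keratin of basal epidermis, was found in 39.6% of set 1 cells and 0.855% of set 2 cells. The part of such outside RNA in the levels below was not tested.

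Among the signalling chains, Cd3g had by far the highest level. Its level was 457 CPM (446 to 467) in set 1, from 7539 UMIs, and 533 CPM (523 to 544) from the 9614 UMIs of set 2. Cd3e stood at 7.39 CPM (6.13 to 8.82) and 5.94 CPM (4.86 to 7.17), from 122 and 107 UMIs. Ratios of UMIs were also taken between genes, although how evenly RNAs of different genes are captured and counted was not tested. There were 61.8 (51.7 to 74.5) UMIs of Cd3g counted per UMI of Cd3e in set 1 and 89.9 (74.3 to 110) in set 2. Cd3d, at 6.66 CPM (5.47 to 8.03) and 9.87 CPM (8.48 to 11.4), gave Cd3g to Cd3d ratios of 68.5 (56.8 to 83.5) and 54.0 (46.6 to 63.0). Cd247, the zeta chain that other receptors also use, lay above both at 12.7 CPM (11.0 to 14.5) and 31.5 CPM (29.0 to 34.2).

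The beta constant regions were at levels near that of Cd3g. Trbc2 (chromosome 6, 41546730 to 41548352) stood at 436 CPM (426 to 446) and 432 CPM (423 to 442), and Trbc1 (41538218 to 41539881) at 255 CPM (248 to 263) and 401 CPM (392 to 410). The ratio of Trbc2 to Trbc1 UMIs was therefore 1.71 (1.64 to 1.77) in set 1 and 1.08 (1.04 to 1.11) in set 2. The 2 genes are close copies: 40.5% of the 50-base windows of Trbc1 transcripts also occur in Trbc2, and 44.0% in the other direction, so the split of reads between them is uncertain. Their sum was 691 CPM (679 to 704) in set 1 and 833 CPM (820.1 to 847) in set 2. It does not depend on how counted UMIs were split between the 2 genes. Whether reads that match both genes were counted at all was not tested, so the sum may be too low. The alpha constant region, Trac (chromosome 14, 54220521 to 54224206), which must pair with beta in an alpha beta receptor, was at 10.5 CPM (9.03 to 12.2) and 19.5 CPM (17.5 to 21.6). There were 41.4 (35.6 to 48.4) UMIs of Trbc2 per UMI of Trac in set 1 and 22.2 (19.96 to 24.8) in set 2.

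The gamma and delta constant regions were all far below the beta ones. Trdc (chromosome 14, 54142851 to 54148868) was at 23.6 CPM (21.3 to 26.1) and 57.1 CPM (53.7 to 60.7). Tcrg-C4 (chromosome 13, 19344558 to 19352756) was at 29.97 CPM (27.4 to 32.7) and 52.3 CPM (49.0 to 55.8), and Tcrg-C1 (19214103 to 19217024) at 14.3 CPM (12.5 to 16.2) and 4.99 CPM (4.01 to 6.14). Tcrg-C1 was thus the 1 member with non-overlapping intervals that was lower in set 2, and the ratio of Tcrg-C4 to Tcrg-C1 UMIs was 2.10 (1.79 to 2.46) in set 1 and 10.5 (8.43 to 13.2) in set 2. Tcrg-C1 shares 17.9% of its 50-base windows with Tcrg-C2, which had 11 and 7 UMIs, while no window was shared with Tcrg-C4.

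In the order of levels, neighbours with overlapping intervals were Tcrg-C1 with Cd247, Cd247 with Trac, and Cd3e with Cd3d in set 1. In set 2 they were Trdc with Tcrg-C4, and Cd3e with Tcrg-C1. The intervals of all other neighbours did not overlap, although those of Cd3g and Trbc2 in set 1 met at 446 CPM.

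**Figure D2:**
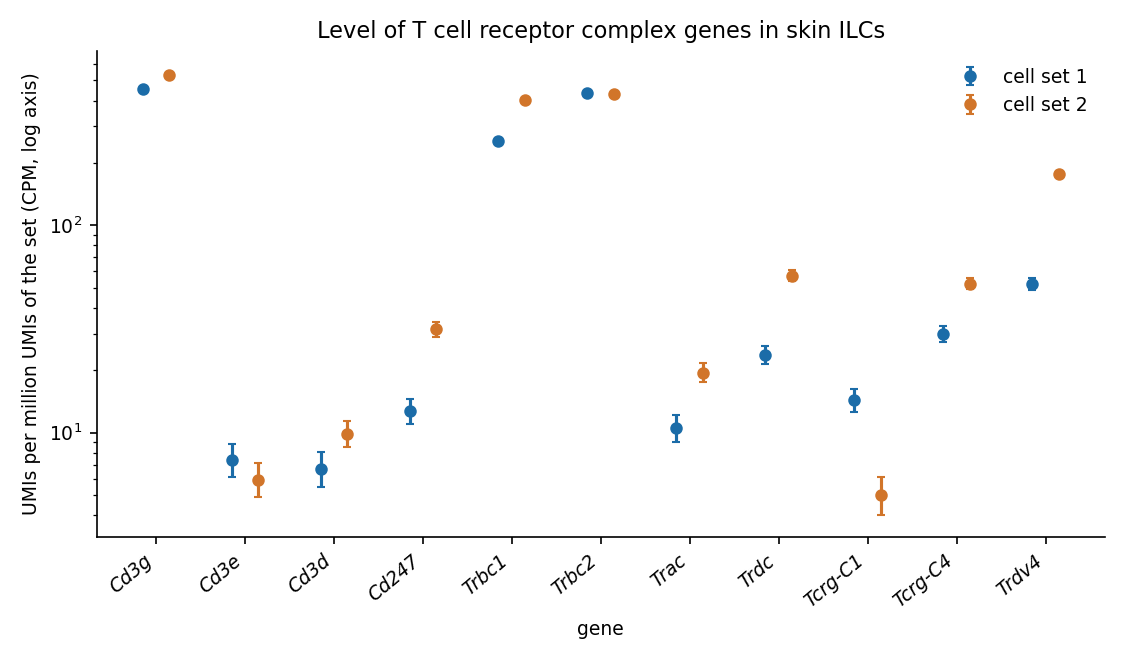
Level of each member gene and of the delta V segment Trdv4 in CPM on a log axis, with exact Poisson 95% intervals, for cell set 1 (blue) and cell set 2 (orange). Cd3g, Trbc1 and Trbc2 lie between 255 and 533 CPM, and Cd3e and Cd3d below 10 CPM in both sets.

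Between the sets, 3 of the 10 members were at least 2-fold apart, as were 15.1% of the 9495 genes with at least 100 UMIs over both sets. Cd247 was 2.49-fold (2.12 to 2.93) and Trdc 2.42-fold (2.15 to 2.73) higher in set 2, the direction in which 6.23% of genes passed 2-fold. Tcrg-C1 was 2.86-fold (2.24 to 3.69) higher in set 1, the direction of 8.91% of genes. Trac differed 1.85-fold (1.54 to 2.23), Tcrg-C4 1.75-fold (1.56 to 1.95), Trbc1 1.57-fold (1.51 to 1.63), Cd3d 1.48-fold (1.16 to 1.90) and Cd3g 1.17-fold (1.13 to 1.204), all higher in set 2. For Trbc2, at 0.99 (0.960 to 1.02), and Cd3e, at 0.80 (0.614 to 1.05), the interval of the ratio spanned 1. The log2 ratio of Cd3e, -0.32, depended on the cells used, at -1.24 after thinning and -0.99 without the 10 cells of each set with the most Cd3e UMIs. The median log2 ratio was 0.61 over the members and -0.15 over all genes tested. Scaling with TMM factors moved every log2 ratio up by 0.15 and put Trac past 2-fold.

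The share of cells with at least 1 UMI depends on depth, so it was also taken after thinning to 4000 UMIs each cell that held as many, so that 60 shallower cells of set 1 and 1081 of set 2 were not used. Cd3g was found in 83.1% (81.0 to 85.0) of set 1 cells and 74.7% (73.2 to 76.1) of set 2 cells, and after thinning in 68.7% and 72.8%. The cells deep enough to thin gave 84.3% and 79.4% at their own depth. Trbc2 was found in 89.3% and 72.1% (thinned 73.4% and 70.5%), and Trbc1 in 74.2% and 75.8% (thinned 53.4% and 74.2%). In the same cells the order of the sets thus turned for Cd3g on thinning, and of these 3 genes only Trbc1 had a wide gap between the sets. Trdc was found in 16.9% and 18.2% of cells (thinned 8.25% and 16.5%), Tcrg-C4 in 17.5% and 17.4% (thinned 7.89% and 15.4%), and Cd247 in 11.7% and 12.9% (thinned 4.996% and 11.1%). For these 3 genes the shares were close at the cells' own depth and, like their CPM, higher in set 2 at equal depth. Trac was found in 10.5% and 8.98% of cells (thinned 3.77% and 7.09%) and Tcrg-C1 in 10.1% and 1.62% (thinned 5.36% and 1.24%).

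Cd3e and Cd3d RNA was no more widespread than some RNAs of other cell types. Cd3e was found in 5.07% (3.99 to 6.33) and 1.25% (0.913 to 1.68) of cells (thinned 2.24% and 0.783%), and Cd3d in 5.62% and 3.56% (thinned 2.46% and 2.84%). After thinning Krt14 was found in 18.2% and 0.618% of the same cells, Krt10 in 9.41% and 3.96%, and Hbb-bs, an adult haemoglobin gene, in 10.9% and 4.24%. The shares of Cd3e and Cd3d lay below all 3 in set 1 and below Krt10 and Hbb-bs in set 2, so a UMI of either gene in a cell is not by itself read as expression. In set 2 Cd3d lay above other outside genes such as Krt5 (0.494%), Col1a1 (0.865%) and Hba-a1 (1.19%). The thinned shares of Trac, Cd247, Trdc, Tcrg-C1 and Tcrg-C4 in set 1 also lay below that of Krt14, and that of Tcrg-C1 in set 2 below that of Krt10. In set 2, Cd247, Trdc, Tcrg-C4 and Trac lay above each of these outside genes, and the shares of Cd3g, Trbc1 and Trbc2 lay far above them in both sets.

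**Figure D3:**
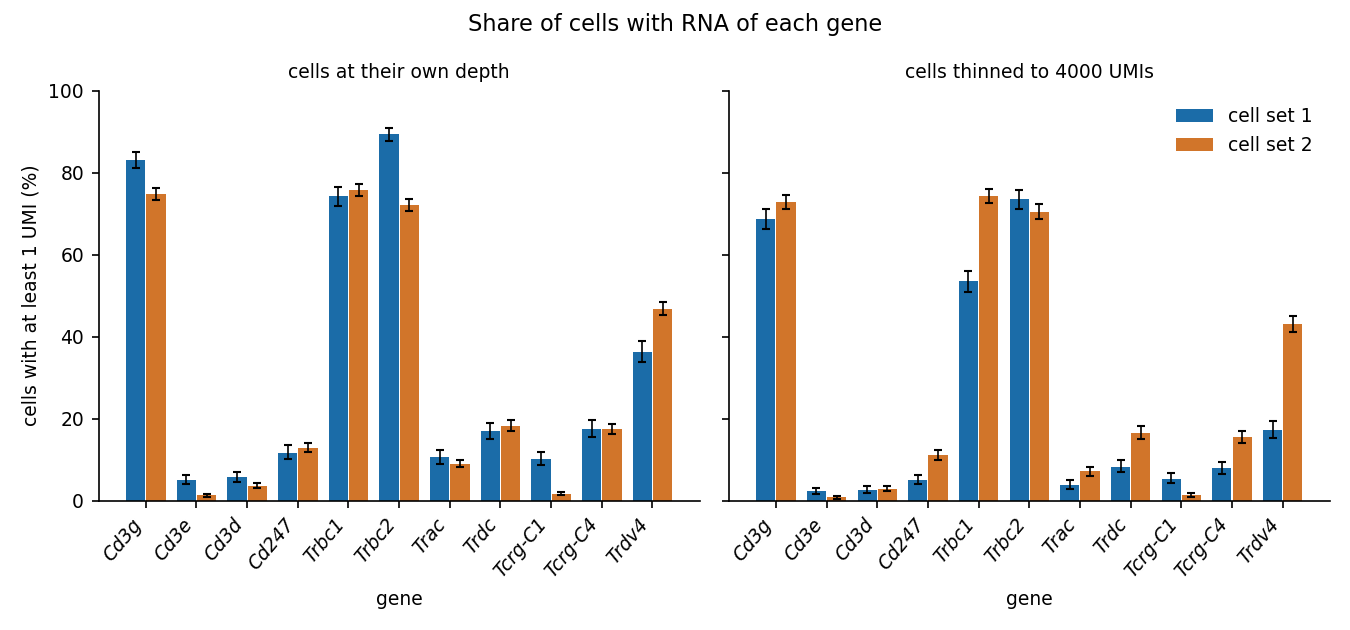
Share of cells with at least 1 UMI of each gene, as percent with exact Clopper-Pearson 95% intervals, at the cells' own depth (left) and after thinning each cell to 4000 UMIs (right), for cell set 1 (blue) and cell set 2 (orange). Cd3g, Trbc1 and Trbc2 are in 53.4% or more of the cells in every bar, and Cd3e and Cd3d in 5.62% or less.

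Most cells with Cd3g RNA had no UMI of its partners, as had most cells of any kind (1295 of 1441 and 3348 of 3508). In set 1, 1197 cells held Cd3g RNA and 1057 of them held neither Cd3e nor Cd3d. In set 2 the numbers were 2621 and 2476. After thinning the shares without both were 94.2% (92.5 to 95.6) and 95.8% (94.8 to 96.7). Constant-region RNA of any kind was found in 1397 and 3235 cells, and 89.8% (88.1 to 91.3) and 95.2% (94.4 to 95.9) of these held neither Cd3e nor Cd3d. A cell with few UMIs can miss a rare RNA, and a UMI can come from outside a cell, so these shares count detections and not cells that lack the RNA. Cells with no UMI of any member were few, 18 of 1441 and 137 of 3508, with median depths of 3006.5 and 1355 UMIs.

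Cd3e or Cd3d RNA was rarely found without Cd3g. Of the 146 and 160 cells with Cd3e or Cd3d, 140 (95.9%) and 145 (90.6%) also held Cd3g, beside 81.6% and 74.0% of the cells with neither. The more Cd3g UMIs a cell held, the more often it held Cd3e or Cd3d. With 0, 1 to 4, 5 to 9 and 10 or more Cd3g UMIs, the share was 2.46%, 7.33%, 13.8% and 18.2% in set 1 and 1.69%, 4.49%, 6.17% and 19.4% in set 2. Median depth moved with these bins, from 8383 to 13560 UMIs in set 1 and from 4374 to 7011 in set 2. In cells thinned to 4000 UMIs the shares were 1.62%, 5.09%, 7.94% and 23.5% in set 1 and 1.67%, 3.097%, 8.87% and 13.6% in set 2, with 17 and 22 cells in the last bin. Even among cells with at least 10 Cd3g UMIs at their own depth, 81.8% and 80.6% held neither partner.

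**Figure D4:**
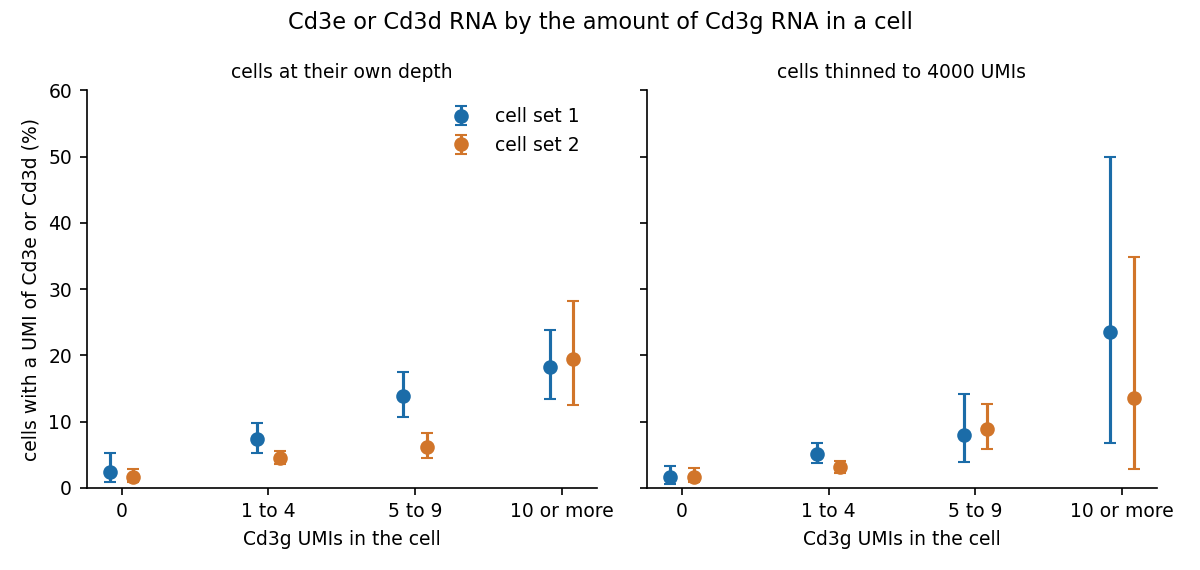
Share of cells with a UMI of Cd3e or Cd3d, in percent with exact Clopper-Pearson 95% intervals, by the number of Cd3g UMIs in the cell, at the cells' own depth (left) and thinned to 4000 UMIs (right), for cell set 1 (blue) and cell set 2 (orange). The share is higher with more Cd3g UMIs and stays at 23.5% or less.

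A few cells held all 3 CD3 genes of chromosome 9: 8 in set 1 and 9 in set 2. The 9 cells of set 2 held 51 of the set's 107 Cd3e UMIs and 54 of its 178 Cd3d UMIs. Summed over them, Trdc reached 2018 CPM (79 UMIs), Tcrg-C1 741 CPM (29 UMIs) and Trdv4 996 CPM (39 UMIs), while Trbc1 stood at 664 CPM and Trac had 4 UMIs. The 3 cells with the most Cd3e UMIs in set 2 were all of this kind. The first, with 2895 UMIs in all, held 40 of Cd3g, 20 of Cd3e, 7 of Cd3d, 17 of Trdc and 11 of Tcrg-C1. The second, with 3376, held 24, 12, 21, 11 and 8 of the same genes, and the third, with 8688, held 20, 4, 11, 23 and 4. These cells thus carried the signalling chains together with gamma and delta constant regions, and they were singled out after their values were seen. In set 1 the 8 cells had no Trac UMI and held 71, 17, 20 and 20 UMIs of Cd3g, Cd3e, Cd3d and Trdc. These made 682, 163, 192 and 192 CPM. A single cell held 10 of the Cd3d UMIs and 10 of the Trdc UMIs. In both sets such cells were chosen for holding Cd3g, Cd3e and Cd3d, so the choice itself raises their levels of these 3 genes.

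Cells without Cd3e and Cd3d made up 89.9% and 95.4% of all cells, so their Cd3g and beta levels largely set those of all cells. In the 1295 and 3348 cells with neither, Cd3g stood at 428 and 514 CPM, Trbc2 at 431 and 428 CPM and Trbc1 at 250 and 397 CPM. In the 146 and 160 cells with Cd3e or Cd3d, Cd3g stood at 698 and 917 CPM, at median depths of 11321 and 4941 UMIs against 10601 and 4837.5. Trdc, at 21.4 and 50.5 CPM in the cells with neither, stood at 42.3 and 190 CPM in the cells with Cd3e or Cd3d. Tcrg-C1 stood at 14.7 (12.8 to 16.8) against 10.9 CPM (6.54 to 17.0) in set 1, where the intervals overlap, and at 2.97 (2.21 to 3.91) against 45.5 CPM (32.4 to 62.2) in set 2. Of the 90 Tcrg-C1 UMIs of set 2, 39 were in cells with Cd3e or Cd3d, 29 of them in the 9 cells with both, and without such cells its log2 ratio between the sets moved from -1.52 to -2.31.

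Variable (V) segments are carried by a rearranged receptor RNA at its 5′ end. Among the V segments in the table, which included none of the beta locus, almost all UMIs were of the delta locus. Of its 862 and 3188 V UMIs, 859 and 3184 were of Trdv4. Trdv4 (chromosome 14, 54074905 to 54075515) stood at 52.0 CPM (48.6 to 55.6) in set 1 and 177 CPM (171 to 183) in set 2, a 3.40-fold (3.15 to 3.67) difference, and was found in 36.3% and 46.8% of cells (thinned 17.3% and 43.1%). It exceeded Trdc, with 2.20 (1.95 to 2.49) and 3.09 (2.88 to 3.32) UMIs per Trdc UMI. Yet the 2 were not found together more often than apart. Trdv4 was in 38.3% and 44.1% of the cells with Trdc and in 35.9% and 47.4% of those without, and at 4000 UMIs in 14.0% and 37.7% against 17.6% and 44.1%. Most cells with Trdv4 thus held no Trdc UMI, 430 of 523 and 1360 of 1642. How the authors' counting divides reads of a spliced receptor RNA between V and C rows is not given in the sources used here.

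At the gamma locus, the V segment Tcrg-V1 was found more often in cells with Tcrg-C4 than in cells without. Tcrg-V1 (chromosome 13, 19339989 to 19340454), 4569 bases before the start of Tcrg-C4 on the same strand, was at 1.39 CPM (23 UMIs) and 7.71 CPM (139 UMIs), 5.54-fold (3.54 to 9.02) higher in set 2. It was in 4.76% and 8.03% of the cells with Tcrg-C4 and in 0.673% and 2.55% of the others, and at 4000 UMIs in 2.75% and 5.09% against 0.236% and 2.09%. In set 1 these thinned shares came from 3 cells each, with intervals that overlap (0.571% to 7.83% and 0.0487% to 0.688%). At their own depth, 8 of 20 and 74 of 123 cells with Tcrg-V1 held no Tcrg-C4 UMI. Tcrg-V5 had 12 and 10 UMIs, Tcrg-V6 3 and 21, Trgv2 9 and 12 and Tcrg-V7 0 and 6. The 3 alpha V segments together had 11 and 8 UMIs beside 174 and 351 of Trac. No beta V segment was among the 18786 genes of the table.

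Cells were clustered without the receptor and CD3 genes, so that their levels could be read across clusters. With at least 50 cells of a set in a cluster, set 1 filled 4 clusters and set 2 filled 7. Cd3g was present in each. In set 1 it was at 406 CPM (392 to 420) in cluster 3 (led by Calca and Igsf5), 439 CPM (422 to 457) in the cycling cluster 4, 420 CPM (390 to 453) in cluster 5 (Il22, Fcer1g and Tyrobp) and 819 CPM (772 to 867) in cluster 6 (G0s2 and Tspan32). In set 2 it was at 523 CPM in cluster 0 (Cd70 and Tnfrsf4), 442 CPM in cluster 1 (Hba-a1 and Gzmb), 766 CPM (739 to 793) in cluster 2 (Hspa1b and Id3), 348 CPM in cluster 4 and 269 CPM (226 to 318) in cluster 7 (Il1rl1 and Il5). Cd3g was thus highest in cluster 6 of set 1 and cluster 2 of set 2, beyond counting error. The shallow clusters 8 and 9 of set 2, at medians of 1148 and 752 UMIs, gave 100.1 CPM (49.97 to 179) and 490 CPM (356 to 658). In set 1 Krt14 ranged from 40.4 to 70.0 CPM over the clusters and was likewise highest in cluster 6. Cd3e had no UMI in clusters 4, 7, 8 and 9 of set 2, where a count of 0 allows up to 2.52, 5.89, 27.3 and 33.4 CPM, so no order can be read for the shallow clusters 8 and 9. It had 5 UMIs in the 1131 cells of cluster 0, at 0.776 CPM (0.252 to 1.81), beside 7.88 CPM (5.68 to 10.6) in cluster 1.

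Cluster 5 of set 1, whose leading genes include Il22 and the adaptors Fcer1g and Tyrobp, held the members in other proportions. Cd3g was found in 47.0% (39.9 to 54.2) of its 198 cells and in 88.5% to 89.6% of the cells of the other 3 clusters, although cluster 6 was shallower (medians of 8039 and 7256 UMIs). In it 12 cells with 10 or more Cd3g UMIs, 1 of them with 64, held 57.8% of the cluster's Cd3g UMIs, and without these 12 cells the level was 193 CPM. Such cells also held 59.2% of the Cd3g UMIs in cluster 4 of set 1, 46.2% in cluster 6 and 30.6% in cluster 3, where the rest of the cells were at 263, 609 and 324 CPM. Tcrg-C1 was highest there, at 48.0 CPM (38.0 to 59.7) and in 22.2% of cells, against 8.39 to 28.3 CPM in the other clusters of set 1. In the 12 cells Tcrg-C1 had 2 UMIs, too few to set against the 50.7 CPM of the rest of the cluster. Trdv4 was lowest there, at 12.6 CPM (7.79 to 19.2) against 46.9 to 81.3 CPM, with no UMI in the 12 cells, which were chosen after their values were seen. Besides 7 of 12 ILC3 markers, 4 of 11 ILC1 and NK, 3 of 11 alpha beta T, 2 of 11 gamma delta T, 2 of 4 mast cell, 2 of 5 keratinocyte and 3 of 5 fibroblast markers were raised in this cluster, and their part was not tested. The alpha beta and gamma delta T lists hold members such as Trbc2 and Tcrg-C1, so those counts are not separate from the levels above.

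In set 2, cluster 7, which had 9 of 13 ILC2 markers raised, was low in several members. Cd3g was found in 44 of its 88 cells (interval of the share 39.1% to 60.9%) at a median of 5588 UMIs, and in 80.8% of cluster 0 cells at 5373. Trdc was at 7.85 CPM (2.14 to 20.1) there and at 69.9 CPM (63.0 to 77.4) in cluster 1. Trbc2, by contrast, was at 510 CPM (450 to 576) in cluster 7 and between 404 and 496 CPM in clusters 0, 1, 2 and 4. Trdv4 was highest in cluster 8, led by Nabp1 and Neat1, at 491 CPM (369 to 641), where Trbc2 was lowest at 164 CPM (97.1 to 259).

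**Figure D5:**
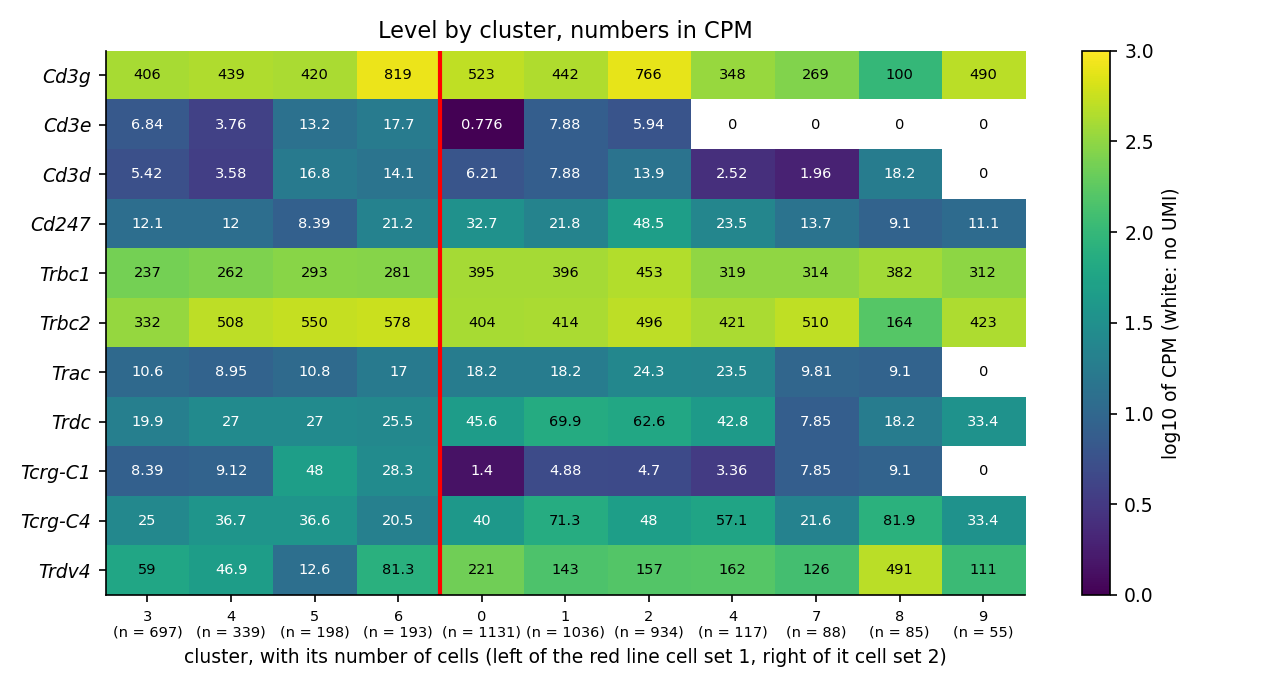
Level of each member and of Trdv4 in CPM (numbers, colour by log10 of CPM) in each cluster with at least 50 cells of a set, cell set 1 left and cell set 2 right of the red line. Cd3g, Trbc1 and Trbc2 are present in every column, Tcrg-C1 is highest (48.0 CPM) and Trdv4 lowest (12.6 CPM) in cluster 5 of set 1, and Cd3e is at 0 in 4 columns of set 2.

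Genes that act downstream of the receptor were present in both sets. Of 29 proximal signalling genes 26 could be compared, and 6 were at least 2-fold higher and 2 at least 2-fold lower in set 2, with a median log2 ratio of 0.49. Over all genes tested 6.23% were 2-fold higher and 8.91% 2-fold lower in set 2, and the median was -0.15. Lck, the kinase that first phosphorylates the CD3 motifs, was at 14.4 and 87.1 CPM, a ratio of 6.04 (5.27 to 6.96). Zap70, the kinase that binds the phosphorylated motifs, was at 66.8 and 97.7 CPM, and its scaffold Lat at 90.8 and 152 CPM. The others at least 2-fold higher in set 2 included Sit1 (4.73-fold), Rasgrp1 (2.16-fold), Ptpn22 (2.05-fold) and Plcg1 (2.04-fold), and those lower were Malt1, at 102 and 39.3 CPM, and Trat1, an adaptor bound to the receptor complex, at 17.5 and 6.44 CPM. Ptprc, the gene of the sorting marker CD45, was at 375 and 672 CPM.

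Of 11 coreceptor and costimulation genes 6 could be compared. Cd27 was 2.68-fold (2.51 to 2.86) higher in set 2, at 72.8 and 195.1 CPM, and Cd4 stood at 11.8 and 2.22 CPM. Icos, a costimulatory receptor, had the highest level of this list, at 983 and 1520 CPM, while Cd28 stood at 65.4 and 69.3 CPM. The list's median log2 ratio was 0.05. Of the recombination genes Ptcra, the pre-T-cell receptor alpha chain, had 19 and 36 UMIs, and Rag1, Rag2 and Dntt were not analysed here.

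Of 18 T lineage transcription factors 17 could be compared, with a median log2 ratio of 0.46. Tcf7 was at 69.7 and 157 CPM (2.26-fold higher in set 2) and Id2, a factor of ILC development, at 929 and 1863 CPM (2.01-fold). Myb was lower in set 2, at 8.42 and 1.94 CPM. Gata3, at 577 and 593 CPM, and Runx1, at 118 in both, had ratios whose intervals spanned 1. Ets1 was at 575 and 1020 CPM and Bcl11b at 116 and 185 CPM. Of the 3 signalling adaptors of other receptors, Fcer1g, at 90.9 and 32.7 CPM, and Tyrobp, at 53.8 and 5.16 CPM, were at least 2-fold lower in set 2, as were 8.91% of all genes tested. Hcst was at 248 and 476 CPM. Fcer1g and Tyrobp are leading genes of cluster 5, which held 198 cells of set 1 and 40 of set 2. The part of that cluster in their difference was not tested.

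Across cells, no gene followed Cd3g closely. Among 6285 genes found in at least 5% of the cells of each set, the 10 with the highest smaller Pearson r of log-scaled UMIs (1441 and 3508 cells) included Rpl39, Rps29, Ucp2, Rpl32, Lgals1, Rps4x, Emp3, Tmsb4x and Rps24, with r between 0.19 and 0.27. Trbc2 ranked 46, Trbc1 83, Cd247 107, Trdc 165, Trac 691 and Tcrg-C4 1859. All values of a cell share its depth, and correlations this weak in sparse counts are no finding. Depth itself moved with the Cd3g level: over 4 equal groups of cells from shallowest to deepest, set 1 gave 530, 552, 462 and 383 CPM, and set 2 gave 681, 617, 509 and 461 CPM. Cd3e in set 2 was at 23.9, 7.99, 2.30 and 1.79 CPM over the same groups, with 53 of its 107 UMIs in the shallowest. Of those 53, 20 and 12 were in the 2 cells with the most Cd3e UMIs, so these values are not read as a trend with depth.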

How the data were processed

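The submitters' processing notes name the mm10 build, Cell Ranger 3.1.0 and Seurat 4.1.0. For either tool the settings were not given in the sources used here. Values in the deposited table are raw counts of UMIs per gene and cell, with no scaling by the authors. No column was left unused. A cell was kept if at most 10% of its UMIs were mitochondrial and it held 200 genes or more, so that 30 and 267 cells were left out. Totals were 16514632 UMIs in set 1 and 18026148 in set 2. No doublet caller was run, and leaving out the 2% of cells with the most UMIs stood in for one.

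UMIs were summed over the cells of a set and given per 1000000 UMIs (CPM), with exact Poisson intervals for levels, exact Clopper-Pearson intervals for shares and exact binomial intervals for ratios (scipy 1.17.1). For a count of 0 an upper limit of 3 UMIs applies. Thinning drew 4000 UMIs per cell without replacement, which left out 60 and 1081 shallower cells. Clusters were made in scanpy 1.11.5 (2000 variable genes, 30 principal components, 15 neighbours, Leiden resolution 0.5) after 21 receptor and CD3 genes were removed. TMM factors came from edgeR 4.0.16, with no test. The computations were tested on simulated data. Promoters were matched by symbol for the 3 CD3 genes of chromosome 9, and gene positions came from GENCODE on GRCm38.

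The named genes are the 10 members, the V segments with the most UMIs of each locus, the 10 genes most like Cd3g, and in each pathway list those with the highest CPM or at least 2-fold apart. A few genes that this rule names are not reported here. The members and lists were chosen with earlier results of these data known. Alternatives were the mitochondrial limit, thinning, the count that makes a cell positive, TMM scaling, the UMI minimum, the Leiden resolution and leaving out cells.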

Additional observations from a re-analysis of the deposited data

Results flagged for a closer look

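Cd3g RNA was also present in the cells that the mitochondrial limit left out of every comparison. In the 30 such cells of set 1 it stood at 284 CPM (186 to 417), from 26 UMIs, and in the 267 of set 2 at 168 CPM (124 to 222), from 49 UMIs. These values were singled out because they are a signal in data that were not otherwise used. Cd3g was found in 23.3% and 10.9% of these cells, whose median depths were 2270 and 898 UMIs. Both levels lay below those of the kept cells.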

How the results depend on the processing

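No called result changed direction under the alternatives run; the log2 ratio of Trbc2, near 0, went from -0.01 to 0.14 with TMM scaling. Of 136 levels 117 moved by less than their counting interval, as did 57 of 104 shares of positive cells and 29 of 42 ratios. Of the cells with Cd3g, the share that lacked Cd3e and Cd3d moved to 94.2% and 95.8% after thinning and to 94.0% and 98.4% where only Cd3e had to be absent, and of the cells with a constant region to 95.3% and 96.3%, and 94.8% and 98.7%. Genes at least 2-fold apart made up 36.5% with no minimum of UMIs and 11.9% after thinning, against 15.1%, and 4 members passed with TMM scaling and 4 after thinning. The lowest Cd3g level of a set 1 cluster was 391 CPM at Leiden resolution 0.3 and 381 CPM at 1.0. For Cd3e the log2 ratio between the sets was -0.32, and -1.24 after thinning. Leaving out, as an alternative added after seeing the data, the 10 cells of each set with the most UMIs of the gene gave -0.99 for Cd3e and -2.06 for Tcrg-C1 (-1.52 with all cells), and leaving out the cells with Cd3e or Cd3d, also added later, gave -2.31 for Tcrg-C1. The cell with the most Cd3e UMIs held 18.7% of those of set 2. No paired analysis was possible because each group had 1 library and the cell names match neither. Depth limits what a missing Cd3e or Cd3d UMI can show in a single cell.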
